A study of Mus musculus with 25 samples.

Results

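The adult esophagus of mice homozygous for a cancer-derived NRF2 mutation was compared with that of wild-type mice. The comparison holds 8 of the 25 libraries of the series, 4 labelled NRF2L30F/L30F::K5CreERT2 and 4 labelled Wild-Type, chosen by these labels alone. The L30F allele puts phenylalanine in place of leucine at codon 30 of NRF2, inside the DLGex motif, and its expression is switched on by CreERT2, a tamoxifen-dependent recombinase driven by the keratin 5 promoter of squamous cells. Mice were 6 to 9 weeks old and were taken 1 week after tamoxifen at 100 μg per g body weight. The design text gives tamoxifen for every adult group and does not say whether the wild-type mice carried CreERT2. The other adult groups, which enter the same fit and are compared at the end, are NRF2L30F/+::K5CreERT2 heterozygotes and KEAP1flox/flox::K5CreERT2 mice, here called KEAP1-deficient, with 4 libraries each. RNA came from the whole esophagus, so muscle, connective tissue and blood vessels contribute beside the epithelium, and fewer cells of a type cannot be told apart from less of its RNA per cell. The share of squamous cells that recombined was not measured in these data.

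NRF2, encoded by Nfe2l2, is a transcription factor that binds antioxidant response elements together with small MAF proteins and turns on genes for glutathione synthesis, thiol reduction, detoxification and export of conjugates. KEAP1, a substrate adaptor of a CUL3 ubiquitin ligase, holds NRF2 through its DLGex and ETGE motifs and sends it to the proteasome, and mutations in either motif are frequent in squamous cancers of the esophagus. The mouse esophagus is lined by a keratinised squamous epithelium in which KRT5 and KRT14 mark the basal layer, KRT4 and KRT13 the suprabasal layers, and cornified envelope proteins the surface.

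The homozygote libraries held 10.9 to 11.6 M reads and the wild-type libraries 27.5 to 32.3 M, so depth differs between the groups without overlap. Values are normalised read counts. Fold changes were fitted after adding 1 to each value and taking log2, so those of genes with few reads are understated. Fold changes are homozygote over wild type unless another group is named, SE is the standard error of the log2 fold change, n = 4 libraries per group, and adjusted p-values are from limma with Benjamini-Hochberg adjustment. Nothing in the labels ties each library to its own animal, so the p-values measure only the spread between libraries, which may be technical. On the leading principal component of the 16 adult libraries, with 39.2% of the variance, the homozygote libraries scored 18.84, 2.75, 27.19 and -15.28, and the wild-type libraries lay between -58.52 and -50.38. All 8 libraries held few Xist reads (at most 8.74) and expressed the Y-linked Ddx3y (at least 864.5).

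Between the groups 4420 of 19857 genes were called (22.3%), with 2348 up (11.8%) and 2072 down (10.4%) in the homozygotes. The shares of 11.8% and 10.4% are the background for every list count of this comparison below. Of the calls, 658 were at least 2-fold higher (3.31% of the genes tested) and 509 at least 2-fold lower (2.56%), and 211 and 122 were at least 4-fold. The share called rose with the level, from 7.66% of genes with a mean under 10 to 32.2% of those at 1000 or more. Without wild-type library 1 the count was 3061, the lowest of the 8 counts that leave out 1 library, and with every adult library thinned to 10.87 M reads it was 3882. Of the 86 tested members of 7 antioxidant and detoxification lists, 48 were called higher and 8 lower. The map of all genes tested colours these lists except NADPH-producing enzymes and heme and iron. It also colours the stress keratin, suprabasal, cornified envelope scaffold and late cornified envelope lists.

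**Figure D1:**
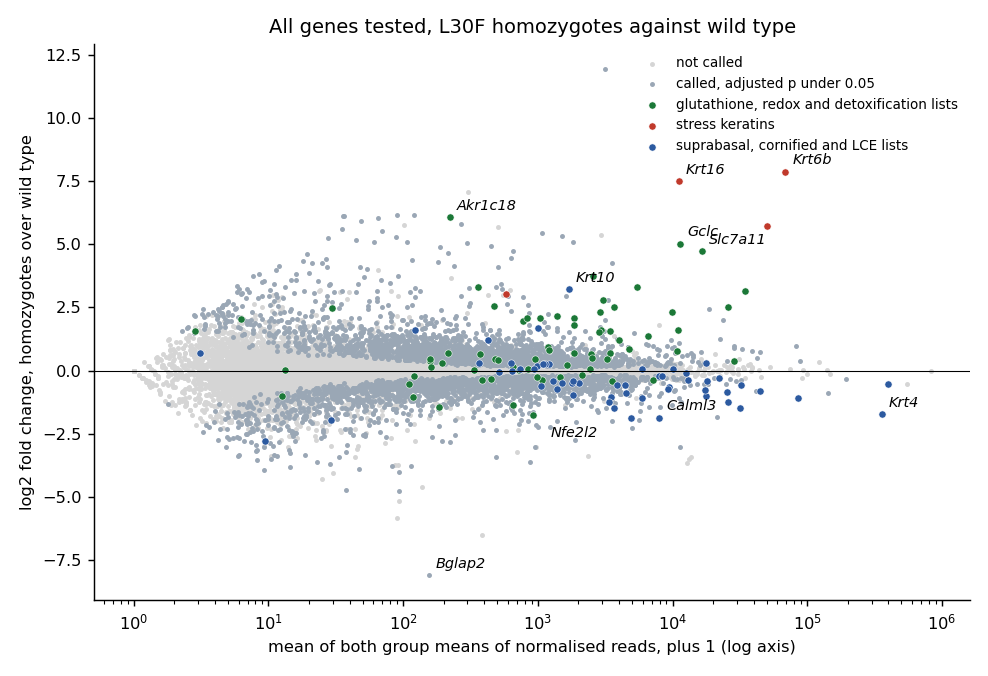
Each point is a gene, with the mean of the homozygote and wild-type group means of normalised reads, plus 1, on a log x axis and the log2 fold change of homozygotes over wild type on the y axis. Light grey points were not called, darker grey ones were, and members of the lists in the legend are coloured whether called or not. Krt6b and Krt16 lie at 7.87 and 7.51, Gclc and Slc7a11 at 5.02 and 4.72, and Krt4 and Nfe2l2 at -1.72 and -1.98.

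The mRNA of the mutated gene itself was lower in the homozygotes. Nfe2l2 (ENSMUSG00000015839) had 1806, 1618, 1204 and 1199 normalised reads in the homozygote libraries against 6110, 5203, 5638 and 5695 in wild type. The groups were far apart, and Nfe2l2 fell 3.94-fold (log2 fold change -1.98, SE 0.12, adjusted p = 1.2e-08). The heterozygotes lay between, at 3293 to 4117. Gene-level counts cannot show which allele or which cells the reads came from. Expression of the mutant allele depends on CreERT2 in squamous cells, while RNA came from the whole esophagus. The parts of recombined and of other cells in the fall of Nfe2l2 therefore cannot be told apart. Keap1 (ENSMUSG00000003308) had 1387, 1225, 1172 and 1294 against 1160, 1164, 1192 and 1077 and was not called (log2 fold change 0.14, adjusted p = 0.18). Of the 13 genes listed for NRF2, KEAP1 and their partners, 1 was higher, 2 were lower and 10 were not called. The share called was near the 22.3% over all genes tested. Bach1, a repressor that competes for the same elements, was called higher (0.40, adjusted p = 0.034) and Nfe2l3, a relative of NRF2, lower (-0.71, adjusted p = 0.041). Both calls were near the threshold: Bach1 was lost without homozygote library 1 or 2 or wild-type library 1, 2 or 4, with adjusted p up to 0.1, and Nfe2l3 without any 1 library except wild-type library 4, with adjusted p up to 0.13. Both were also lost with a striated muscle covariate (adjusted p = 0.058 for each), and Nfe2l3 with limma-voom (adjusted p = 0.068). Small MAF genes and Cul3 were not called.

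Genes on either side of Nfe2l2 were read as well, a set chosen after the fall of Nfe2l2 was seen. Among the 10 nearest tested genes on each side in RefSeq order (GRCm38.p6), 1 was higher, 2 were lower and 17 were not called, a share called of 15% against 22.3% of all genes tested. Agps, the next tested gene, which makes ether lipids in the peroxisome, had 1488, 1341, 1672 and 1336 against 2825, 2352, 2869 and 2546 (log2 fold change -0.86, SE 0.08, adjusted p = 4.4e-06). Its groups did not overlap. Mtx2, a mitochondrial import protein, was higher (0.50). Hoxd8 was called lower (-0.30, adjusted p = 0.031), but not after thinning (adjusted p = 0.15), with only both groups in the fit (adjusted p = 0.055) or without any 1 library except homozygote library 2 or wild-type library 3. Hnrnpa3, the nearest tested gene on the other side, was not called (0.06).

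Genes of cystine import and glutathione synthesis rose strongly. The cystine importer Slc7a11 (ENSMUSG00000027737) had 37090, 32480, 26630 and 31550 normalised reads in the homozygotes against 1057, 1271, 1100 and 1412 in wild type. It rose 26.4-fold (log2 fold change 4.72, SE 0.12, adjusted p = 5.5e-13), and the lowest homozygote library stood far above the highest wild-type library. Its partner chain Slc3a2 rose 3.08-fold. Gclc (ENSMUSG00000032350), the catalytic subunit of glutamate-cysteine ligase, had 24950, 20780, 15760 and 27190 against 680.7, 634.7, 703.7 and 661.4, a 32.4-fold rise (5.02, SE 0.15, adjusted p = 6.3e-12). The modifier subunit Gclm rose 5.01-fold and glutathione synthetase, Gss, 4.41-fold. Glutathione reductase, Gsr, rose 4.23-fold and the neutral amino acid transporter Slc1a4 4.20-fold. Of the 12 genes listed for glutathione synthesis and recycling, 8 rose, 1 fell and 3 were not called, with a median log2 fold change of 1.85 against -0.01 over all genes tested. The member that fell was Chac1, which degrades glutathione (-1.03, adjusted p = 0.005).

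Genes of thiol reduction moved less. Srxn1, which repairs overoxidised peroxiredoxins, rose 9.93-fold, from 745.4 to 1134 in the wild-type libraries to 6227 to 13170 in the homozygotes (3.31, SE 0.21, adjusted p = 4.5e-08). Prdx1, a peroxiredoxin, had 18480, 15420, 12160 and 19800 against 3287, 3145, 3273 and 3281 and rose 4.98-fold (2.32, SE 0.13, adjusted p = 5.4e-09). Thioredoxin, Txn1, rose 1.6-fold and thioredoxin reductase, Txnrd1, 1.57-fold. These 4 were the called members of 10, and the other members lay between -0.39 and 0.70.

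Detoxification genes ranged from strong rises to falls. Nqo1 (ENSMUSG00000003849), the quinone reductase used as a standard NRF2 target, had 6815, 5515, 4833 and 8055 against 1240, 984.2, 1035 and 1094, and rose 5.70-fold (2.51, SE 0.13, adjusted p = 2e-09). The aldo-keto reductase Akr1c18 rose from 3.39, 4.64, 6.22 and 7.39 to 648.4, 381.4, 450.9 and 265.0 (6.06, SE 0.33, adjusted p = 6e-09). The carbonyl reductases Cbr1 and Cbr3 rose 3.89-fold and 3.52-fold. Among 23 genes for quinones, carbonyls and aldehydes, 14 rose, 3 fell and 6 were not called, with a median of 0.47. Aox1, an aldehyde oxidase, fell by 1.74 on the log2 scale (adjusted p = 1.1e-05).

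Among 16 glutathione transferases, which couple glutathione to reactive compounds, 9 rose, 2 fell and 5 were not called (median 0.71). Gsta1 had 6061, 4827, 4324 and 4034 against 466.0, 304.3, 372.1 and 295.1, a 13.4-fold rise (3.75, SE 0.16, adjusted p = 5.3e-10). Gsta3, Gstm1 and Gsto1 rose 9.81-fold, 8.73-fold and 5.66-fold, and Gstm3 fell by 1.45 (adjusted p = 0.0039). Alpha and mu class transferases and the Akr1c genes have close copies in the mouse genome, between which read assignment is uncertain. Exporters of conjugates followed: 7 of 9 rose, 0 fell and 2 were not called (median 0.70). Abcc4 had 5772, 4812, 4248 and 6395 against 738.3, 702.5, 806.3 and 817.3 (6.85-fold, adjusted p = 2.6e-10), and Abcc3 and Abcc1 rose 2.91-fold and 2.29-fold.

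Enzymes of the pentose phosphate pathway and other sources of NADPH, the reductant of these reactions, did not move together. Taldo1 and Tkt, whose branch of that pathway makes no NADPH itself, rose 1.95-fold and 1.59-fold. G6pdx, the first enzyme of the pathway, rose 1.5-fold (0.58, adjusted p = 0.0026). Malic enzyme, Me1, fell 1.5-fold, from 5759 to 6836 in wild type to 3719 to 5077 in the homozygotes (-0.59, adjusted p = 0.022). In all, 3 of 8 rose, 2 fell and 3 were not called, with a median of 0.09. The fall of Me1 passed the threshold only narrowly: without homozygote library 2 or 3 or wild-type library 1 or 3 its adjusted p was between 0.051 and 0.065.

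In the heme and iron list 3 of 8 rose and 0 fell, beside 11.8% and 10.4% of all genes tested. Blvrb, a biliverdin reductase, rose 4.68-fold and the ferritin light chain Ftl1 1.49-fold, while the heavy chain Fth1 was not called (-0.13, adjusted p = 0.52). Of 4 metallothioneins only Mt3 was called, with 2276, 1867, 1509 and 2682 normalised reads against 41.3, 57.4, 66.0 and 27.6 (43.7-fold, adjusted p = 8.3e-10). Mt2, the same family's stress-induced member, had 4214, 3248, 3684 and 4064 against 3374, 4041, 4852 and 1756 and overlapped (0.20, adjusted p = 0.64). Proteasome subunits rose in number rather than in size: 22 of 26 rose and 0 fell, with a median of 0.33. The largest were Psma5, from 600.8 to 670.1 in wild type to 882.0 to 1177 in the homozygotes (1.59-fold), and Psma7 (1.53-fold).

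Promoter sequences of the responding genes were read for the core of the antioxidant response element, written TGACNNNGC and searched on both strands from 250 bases before to 50 bases after each RefSeq start (GRCm38.p6). The windows of Prdx1, which rose, Me1, which fell, and Nfe2l2, which fell, are shown because all 3 hold a match, in capitals. They read 5′ to 3′ along the gene, and lie at chr4:116685349-116685648 (plus strand), chr9:86695865-86696164 (minus) and chr2:75704614-75704913 (minus).
Prdx1: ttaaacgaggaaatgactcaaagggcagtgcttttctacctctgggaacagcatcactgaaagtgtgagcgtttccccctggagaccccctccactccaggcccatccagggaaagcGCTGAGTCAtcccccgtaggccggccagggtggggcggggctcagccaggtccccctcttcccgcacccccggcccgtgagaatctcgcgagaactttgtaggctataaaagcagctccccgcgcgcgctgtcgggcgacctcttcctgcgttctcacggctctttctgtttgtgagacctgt
Me1: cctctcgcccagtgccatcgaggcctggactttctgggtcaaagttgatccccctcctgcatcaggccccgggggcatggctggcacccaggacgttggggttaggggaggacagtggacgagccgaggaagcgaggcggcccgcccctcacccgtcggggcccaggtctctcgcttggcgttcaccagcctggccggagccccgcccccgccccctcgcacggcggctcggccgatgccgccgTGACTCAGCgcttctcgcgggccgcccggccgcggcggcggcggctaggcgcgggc
Nfe2l2: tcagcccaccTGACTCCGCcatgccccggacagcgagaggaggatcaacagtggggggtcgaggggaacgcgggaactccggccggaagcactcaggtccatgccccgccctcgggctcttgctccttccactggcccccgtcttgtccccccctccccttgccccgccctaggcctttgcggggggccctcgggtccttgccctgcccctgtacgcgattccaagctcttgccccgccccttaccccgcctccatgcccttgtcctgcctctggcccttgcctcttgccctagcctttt
The match of Prdx1 begins 133 bases before the start and lies on the opposite strand, where it reads TGACTCAGC. That of Me1 lies 6 bases before the start and reads TGACTCAGC as well, and so does that of Mt2, which was not called. The Nfe2l2 match, TGACTCCGC, lies 240 bases before the start. Identical letters stood in a gene that rose, in one whose fall passed the threshold only narrowly and in one not called.

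Further matches among the genes named above are shown with 10 bases on each side, again with the match in capitals as it reads along the gene.
Abcc4: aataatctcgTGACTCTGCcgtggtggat
Gclm: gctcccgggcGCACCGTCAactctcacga
Srxn1: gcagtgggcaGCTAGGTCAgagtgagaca
Gsta3: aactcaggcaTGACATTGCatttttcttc
Txnrd1: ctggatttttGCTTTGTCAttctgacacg
Mt2: aaagggggtgTGACTCAGCgcggggggtg
Nqo1 and Slc7a11 had windows without a match, which says only that these letters are not in the 300 bases searched. The match stood in 12.4% of all 32851 windows and in 16.4% of the 12778 tested genes with a window. It stood in 17.2% of genes called higher, 16.1% of genes called lower and 16.4% of genes not called. Among the 75 members of the 7 antioxidant lists with a window it stood in 21.3%, in 12 of the 42 that rose (28.6%) and in 4 of the 33 that did not (12.1%). These shares are descriptions, and a match is not shown to be a binding site.

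**Figure D2:**
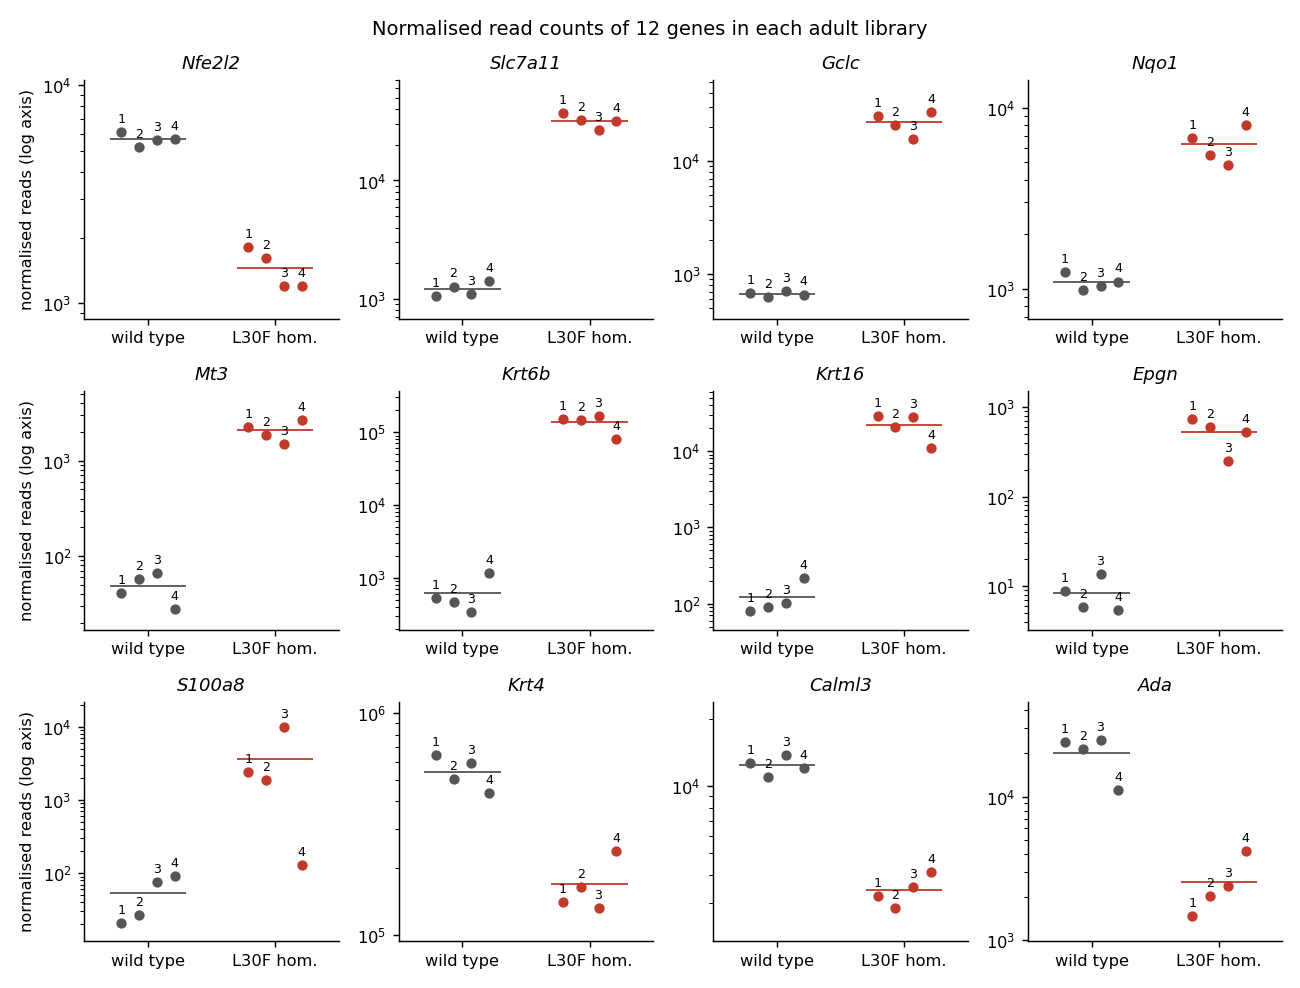
Normalised reads, on log axes, of 12 genes in each wild-type library (grey) and each homozygote library (red), numbered by replicate, with the group mean as a line. All 12 were picked among called genes. Their groups do not overlap, which reflects that choice and is no result about genes in general. S100a8 runs from 130.8 in homozygote library 4 to 10030 in library 3, against at most 92.8 in wild type.

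The keratins that mark wounded or hyperproliferative epithelium had the largest median log2 fold change of the lists read, 6.62. Krt6b (ENSMUSG00000023041) had 151500, 146600, 169000 and 80610 normalised reads against 530.4, 471.8, 345.3 and 1176, a 233-fold rise (7.87, SE 0.38, adjusted p = 6e-09). Krt16, its partner type I keratin, had 28650, 20830, 27810 and 10940 against 79.3, 91.6, 101.4 and 215.7, a 182-fold rise. Krt6a rose 53.2-fold (5.73, SE 0.43, adjusted p = 6.6e-07). Homozygote library 4 was the lowest and wild-type library 4 the highest for all 3 genes, and the groups stayed apart. Krt17 was not called over all libraries, with 1229, 1139, 1198 and 338.2 against 49.5, 93.9, 53.5 and 515.5 (3.01, adjusted p = 0.078). Without wild-type library 4 it was (3.77, adjusted p = 0.036), as it was when only both groups entered the fit (adjusted p = 0.039). Krt6a and Krt6b are close copies, so the split of reads between them is uncertain.

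Basal genes divided. Krt14 rose 4.01-fold, with 51400, 33610, 44600 and 22910 against 9116, 8772, 8839 and 9625 (2.0, SE 0.29, adjusted p = 0.00026). Krt15, a keratin of quiescent basal cells, fell from 14270, 11940, 14450 and 16570 to 4307, 5735, 4865 and 7340 (-1.38, SE 0.25, adjusted p = 0.0018). The integrin chain Itgb1 rose by 0.39 (adjusted p = 0.0078) and Sox2, a transcription factor of foregut epithelium, fell by 0.40 (adjusted p = 0.011). Krt5 was called at 0.48 (adjusted p = 0.024) but not without homozygote library 1 or 3 or wild-type library 1, 2 or 3, with adjusted p up to 0.073. Of the 17 basal genes 4 rose, 4 fell and 9 were not called, and without wild-type library 2 only 2 were called lower. Trp63, Itga6, Itgb4 and Col17a1 were among those not called.

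**Figure D3:**
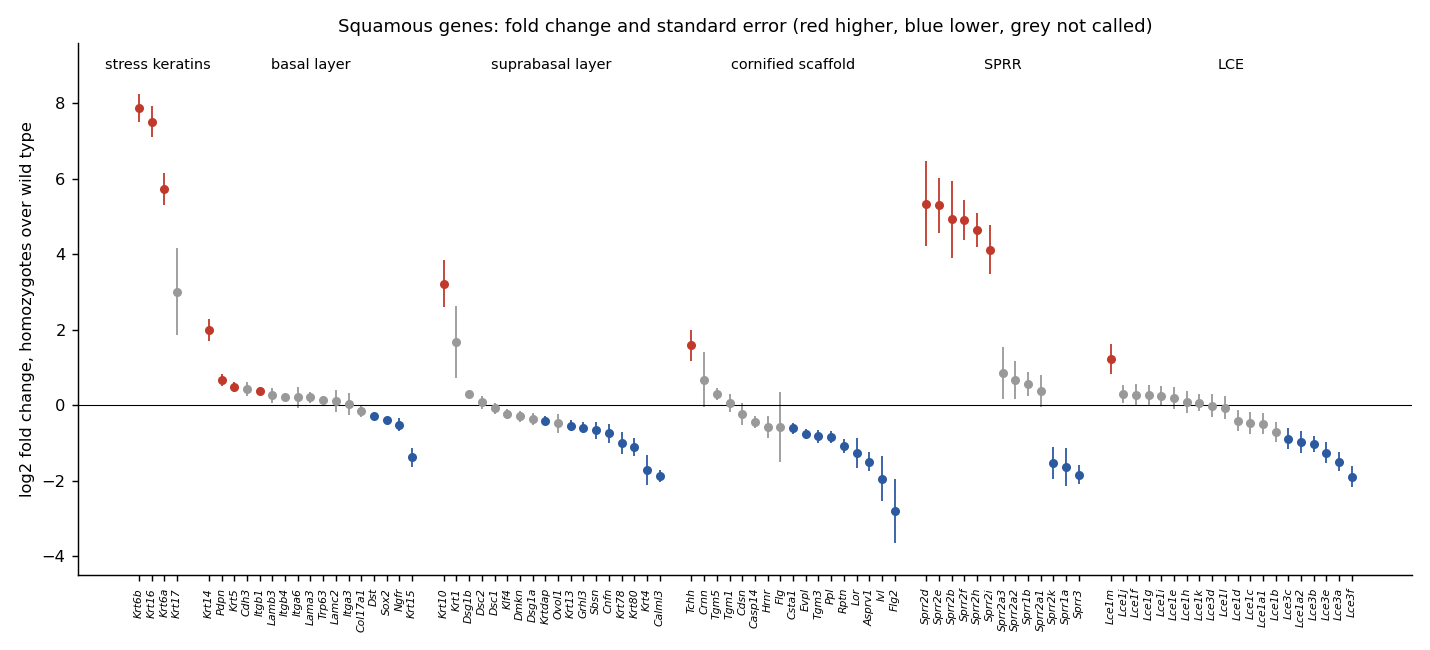
Log2 fold change of homozygotes over wild type with its standard error (bars) for every tested member of 6 squamous gene lists, sorted within each list. Stress keratins stand between 3.01 and 7.87, 6 SPRR genes stand above 4, and the called suprabasal, cornified and LCE genes lie below zero except Krt10, Tchh and Lce1m.

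Among suprabasal genes of the esophagus 9 of 18 fell. Krt4, the main type II keratin there, had 139800, 164300, 131700 and 239400 normalised reads against 647700, 501400, 593500 and 436300, and fell 3.28-fold (-1.72, SE 0.40, adjusted p = 0.0073). Its partner Krt13 fell 1.45-fold (-0.54, SE 0.14, adjusted p = 0.013). The calmodulin-like protein gene Calml3 fell 3.63-fold, with 3215, 2854, 3534 and 4123 against 12760, 11010, 13760 and 12070 (adjusted p = 8.9e-07). Krt80 fell 2.15-fold and Grhl3, a transcription factor of late differentiation, 1.51-fold. Krt10, a keratin of suprabasal skin, went the other way, with 2835, 3598, 1208 and 4667 against 240.5, 541.4, 258.2 and 221.1 (3.22, SE 0.62, adjusted p = 0.0028). Of the 18 genes 1 rose and 8 were not called, and the median was -0.44. The count of 9 became 5 without homozygote library 3, wild-type library 1 or wild-type library 3.

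Surface proteins followed the suprabasal genes, with exceptions within families. Of 17 genes of the cornified envelope scaffold 9 fell, 1 rose and 7 were not called (median -0.61). The protease gene Asprv1 fell 2.81-fold, from 31860 to 55090 in wild type to 10720 to 23690 in the homozygotes (adjusted p = 0.00088). Rptn, encoding repetin, fell 2.09-fold, the plakins Ppl and Evpl fell 1.79-fold and 1.68-fold, and the transglutaminase Tgm3 fell 1.76-fold. Involucrin, Ivl, was low in both groups and its call (-1.94, adjusted p = 0.029) was lost without homozygote library 2 or 3 or any of wild-type libraries 1 to 3, and with limma-voom (adjusted p = 0.094). Tchh, trichohyalin, was the member that rose, with 130.9, 129.3, 447.9 and 62.8 against 55.5, 38.3, 39.8 and 64.5, groups that overlap (1.59, adjusted p = 0.013). With only both groups in the fit, Tchh was not called (adjusted p = 0.06).

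Of 20 genes of the late cornified envelope family 6 fell, 1 rose and 13 were not called, and the rise, of Lce1m, was lost without homozygote library 1, 2 or 4 or wild-type library 2 or 3, with only both groups in the fit and with a striated muscle covariate. Those that fell were mainly of the Lce3 group. Lce3f had 1890, 1885, 1593 and 2988 against 8949, 6828, 9012 and 5887 (-1.89, SE 0.27, adjusted p = 0.00026), and Lce3a fell 2.80-fold. The small proline-rich family split by member: 6 of 13 rose, 3 fell and 4 were not called. Sprr3, the abundant esophageal member, had 8648, 9156, 10810 and 8196 against 38010, 32190, 40580 and 23360, and fell 3.59-fold (-1.84, SE 0.25, adjusted p = 0.00018). The count of 3 lower was 1 without wild-type library 3. Sprr2h had 347.1, 451.0, 645.1 and 202.2 against 12.2, 6.96, 15.6 and 29.6, and rose 25.0-fold (4.64, SE 0.44, adjusted p = 6.4e-06).

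The Sprr2 genes rose most in homozygote library 3 and least in library 4. Sprr2d had 2161, 2651, 6686 and 299.9 against 22.4, 27.8, 26.8 and 226.5, so library 4 of each group nearly met (5.34, SE 1.12, adjusted p = 0.0049). Its log2 fold change was 4.72 without homozygote library 3, 6.21 without homozygote library 4 and 6.12 without wild-type library 4. Sprr2e and Sprr2f rose by 5.29 and 4.90 on the log2 scale, or by 5.96 and 5.53 without homozygote library 4. The Sprr2 genes, like the Lce1 genes, are near-identical copies in clusters, and which copy a read came from is uncertain.

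Proteases and protease inhibitors of the barrier moved in both directions, while most called lipid enzymes fell. Over all genes tested, 11.8% were called higher and 10.4% lower. Among 18 kallikreins and serine protease inhibitors 3 rose, 6 fell and 9 were not called. Klk6 rose from 9.48, 12.2, 11.2 and 14.1 to 146.7, 164.2, 166.6 and 197.0 (3.74, SE 0.28, adjusted p = 2.4e-07). Spink5, which encodes the inhibitor LEKTI of these proteases, rose 2.34-fold, with 32510, 31690, 29840 and 32390 against 13820, 13300, 13460 and 13360. Klk10 and Klk14 fell 3.03-fold and 2.41-fold. In barrier lipid synthesis 6 of 19 fell, 1 rose and 12 were not called. Sptlc3, a subunit of serine palmitoyltransferase, fell 2.92-fold (adjusted p = 0.0007). Pla2g4e, a phospholipase, was called higher at 0.58 (adjusted p = 0.016), and lost the call without homozygote library 1 (adjusted p = 0.053) or wild-type library 3 (0.051).

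In the epidermal growth factor family some ligands rose, while the receptors listed fell. Epgn, which encodes the ligand epigen, had 746.2, 595.3, 249.1 and 530.0 against 8.81, 5.80, 13.7 and 5.38, and rose 55.5-fold (5.79, SE 0.42, adjusted p = 3.2e-07). Nrg1, a ligand of ERBB3, was called at 1.57 (adjusted p = 0.03), and not without homozygote library 1 or 2 or wild-type library 1, 2 or 3, with adjusted p up to 0.094, nor with a striated muscle covariate (adjusted p = 0.053). The receptors Egfr, Erbb2 and Erbb3 fell by 0.40, 0.62 and 0.61 on the log2 scale, with adjusted p = 0.0094, 0.00069 and 0.0043. Egf, the ligand that names the family, was called lower as well (-0.48, adjusted p = 0.031), but not without homozygote library 3 or 4 or wild-type library 1, 2 or 3, with adjusted p up to 0.086. Of the 11 genes listed 2 were higher, 4 lower and 5 not called. In the Notch pathway, which drives squamous differentiation, 3 of 11 fell and 0 rose: Notch2 by 0.31, Notch3 by 0.38 and the target Nrarp by 0.68. For both lists the background is 11.8% of all genes tested called higher and 10.4% lower.

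Among alarmins the calprotectin genes rose most and differed widely between the homozygote libraries. S100a8 and S100a9, the subunits of calprotectin, had 2429, 1859, 10030 and 130.8 and 4419, 3544, 18940 and 615.4 normalised reads. Wild-type libraries had at most 92.8 and 324.6. The log2 fold changes were 5.10 (SE 1.05, adjusted p = 0.0044) and 4.26 (SE 0.74, adjusted p = 0.0016), and 6.29 and 5.11 without homozygote library 4, or 4.20 and 3.47 without library 3. Defb3, a beta-defensin, had 20.51, 26.5, 88.7 and 10.5 against at most 0.672. Il1a, an epithelial cytokine, rose 2.36-fold with no library apart (adjusted p = 0.00044). S100a7a, a psoriasin relative, fell by 1.26 (adjusted p = 0.00033). Of 16 members of the interleukin-1 family and alarmins 6 rose, 2 fell and 8 were not called. In a list of 8 genes, mainly neutrophil chemokines and their receptor, 1 rose, or 2 without homozygote library 2 or wild-type library 2. It was Ccl20 (3.06, adjusted p = 0.0045), which is not a neutrophil chemokine. Ccl20 was at 0.5795 in wild-type library 2 and at 0 in the other wild-type libraries. The summed level of the list was 155.9 to 304.2 in the homozygotes against 195.1 to 398.6 in wild type.

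The leukocyte list moved with the calprotectin genes. Of its 16 markers 9 were higher, 0 lower and 7 not called, and its summed level was 17140 to 40870 normalised reads in the homozygotes against 10300 to 15550 in wild type. The invariant chain Cd74 had 6629, 7445, 14120 and 3158 against 2304, 2741, 2202 and 2671 (1.47, adjusted p = 0.0063). The MHC class II gene H2-Aa and the macrophage lysozyme Lyz2 rose 2.95-fold and 2.06-fold. Ly6g, a neutrophil marker, was at 0 in every wild-type library and at 1.66 to 9.47 in the homozygotes, and its call (adjusted p = 0.0077) was lost after thinning to equal depth (adjusted p = 0.064). The part of leukocytes in the rise of the alarmins was not tested. Relative to the wild-type mean, homozygote library 3 had the highest leukocyte sum, 3.29, and the lowest sum of glutathione transferases, 3.08, while library 4 had 1.38 and 5.38.

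**Figure D4:**
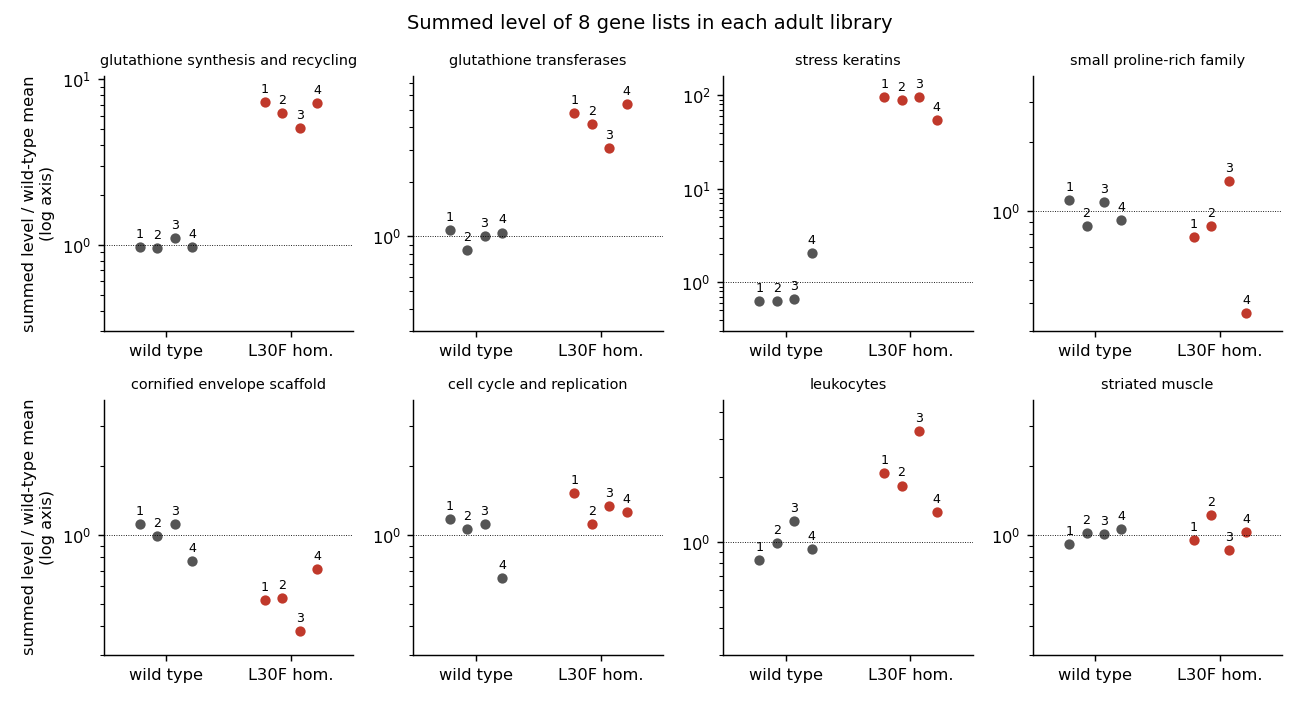
Summed normalised reads of 8 gene lists in each library, divided by the wild-type mean, on log axes; numbers are replicates and the dotted line is 1. Stress keratins stand at 54.1 to 96.9 in homozygotes against 0.63 to 2.08 in wild type, small proline-rich genes overlap (0.36 to 1.36 against 0.86 to 1.12), and striated muscle stays between 0.86 and 1.22.

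Replication genes rose in part. Ccne1, which encodes cyclin E1, had 129.4, 121.0, 96.3 and 120.3 against 33.2, 33.6, 42.9 and 68.6 (1.42, SE 0.20, adjusted p = 0.00014). The helicase subunits Mcm5 and Mcm2 rose 2.07-fold and 1.79-fold, and Tyms, thymidylate synthase, fell by 0.41 (adjusted p = 0.00052). Of 22 cell cycle genes 8 rose, 1 fell and 13 were not called, and the mitotic genes Mki67, Top2a and Cdk1 were among the latter. The summed level of the list was 12390 to 16800 in the homozygotes and 12920, 11680, 12400 and 7188 in wild type, where library 4 stood apart and the groups overlapped. In a list of p53 targets, which also holds the cell cycle inhibitor Cdkn2b, 6 of 13 rose, 1 fell and 6 were not called. Trp53inp1 rose 2.94-fold (adjusted p = 8.8e-05). Gdf15 rose 3.34-fold from a low level, 6.049 to 8.695 in wild type. Cdkn1a, which encodes the p21 inhibitor, fell 1.62-fold with 3341, 2980, 2797 and 3077 against 5350, 5119, 5223 and 4168 (adjusted p = 0.0018).

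Other stress and metabolic lists showed smaller changes. Their counts stand beside 11.8% of all genes tested called higher and 10.4% called lower. In the ATF4 and serine list 5 of 14 rose and 2 fell. Phgdh, the first enzyme of serine synthesis, rose 1.76-fold, and Slc7a5, a leucine transporter, 1.96-fold. Of 10 unfolded protein response genes 0 were called by limma or limma-voom, 3 had an unadjusted p under 0.05, and log2 fold changes lay between -0.08 and 0.41. With only both groups in the fit 2 were called higher, and 1 was after thinning or without homozygote library 3 or wild-type library 4. Interferon-stimulated genes were 5 higher and 0 lower of 14, with 3 higher without homozygote library 1 and 8 without wild-type library 4. Oasl2, an interferon-induced gene, rose 1.78-fold (adjusted p = 0.0023). In cholesterol synthesis 2 of 17 fell, Sc5d by 0.79 and Dhcr7 by 0.36, and without wild-type library 1 only 1 did. In glycolysis 2 of 14 rose and 2 fell, with Pfkl, the liver-type phosphofructokinase, lower (log2 fold change -0.59). The receptor Ahr itself fell by 0.58 and its 4 listed targets were not called. Of 11 immediate early genes, which respond to handling as well as to signals, 1 fell, Fosb (-2.05, adjusted p = 0.0048). The counts of the cholesterol, glycolysis and immediate early lists were near or below the shares over all genes tested.

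**Figure D5:**
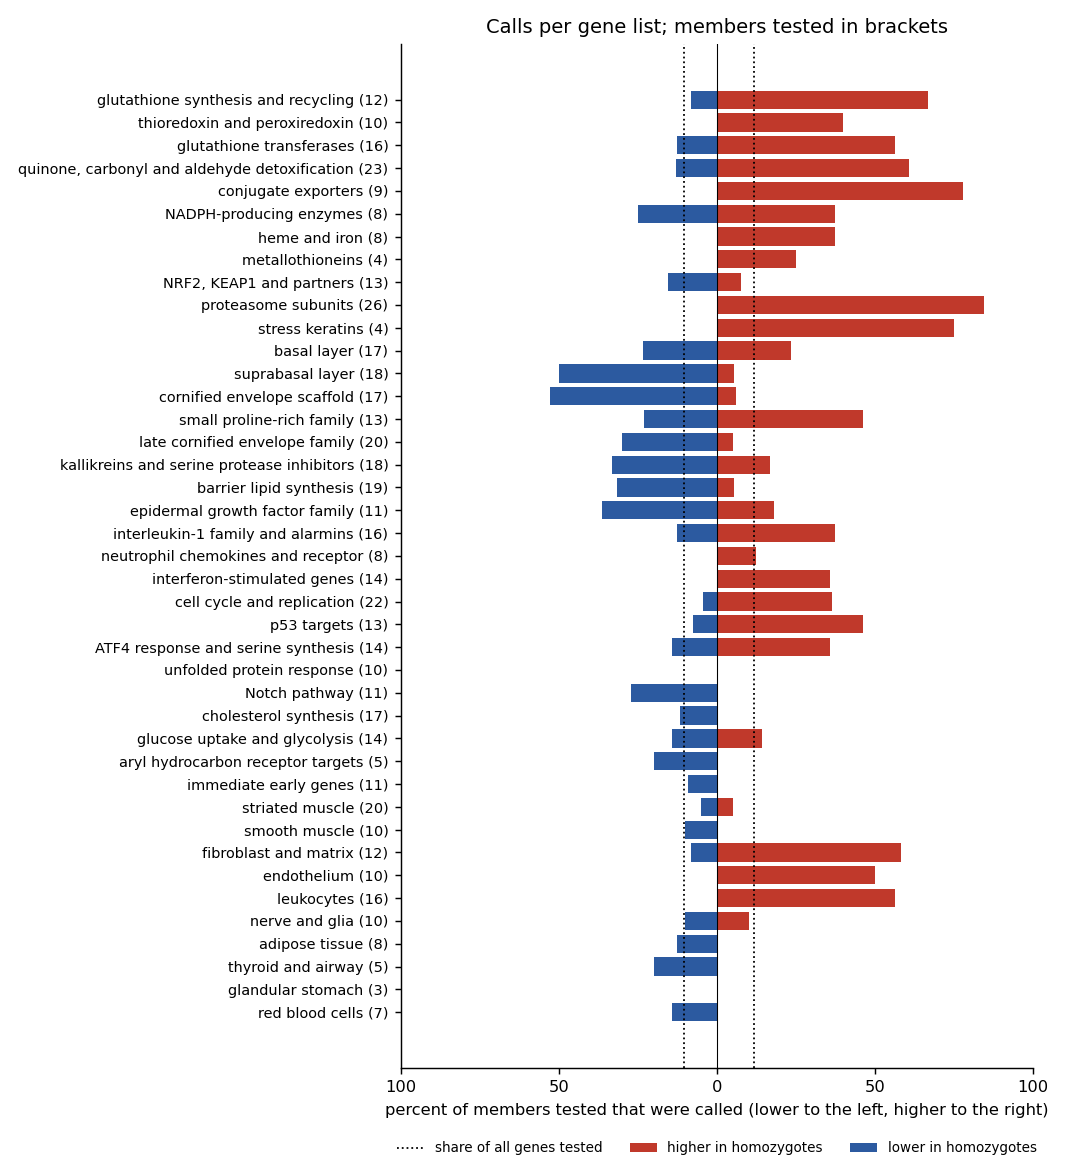
Percent of the tested members of each of 41 gene lists that were called higher (red, right) or lower (blue, left) in the homozygotes, with the number tested in brackets; dotted lines mark the shares over all genes tested, 11.8% higher and 10.4% lower. Proteasome subunits, conjugate exporters and stress keratins reach furthest right, and cornified and suprabasal genes furthest left.

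Markers of the other tissues of the esophageal wall were followed to show what else differed between the libraries. Of all genes tested, 11.8% were called higher and 10.4% lower. Fibroblast and matrix genes were 7 higher, 1 lower and 4 not called of 12, with a summed level of 237500 to 344400 against 163200 to 196100. Col3a1 had 92970, 113000, 133900 and 97500 against 50850, 65710, 55090 and 49370 (1.97-fold, adjusted p = 0.0025), and Col1a1 rose 1.67-fold. In the endothelium list 5 of 10 rose and 0 fell, among them Pecam1 (1.56-fold) and Eng (1.5-fold). Striated muscle, which forms the muscle wall of the mouse esophagus, was level: 1 of 20 rose and 1 fell, and Ttn had 785500, 986000, 697300 and 828400 against 731500, 840500, 840000 and 880500 (-0.01, adjusted p = 0.98). Ckm, the creatine kinase of muscle, was called lower (-0.42, adjusted p = 0.046), but not without homozygote library 1 or 3 or any 1 wild-type library, with adjusted p up to 0.13, nor with Ddx3y as a covariate (adjusted p = 0.054). Smooth muscle had 1 lower and 9 not called, the called gene being Lmod1 (-1.40, adjusted p = 0.0016).

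In the nerve and glia list Tubb3, a tubulin used as a neuronal marker, had 1076, 829.1, 438.7 and 1203 against 88.7, 87.0, 96.4 and 65.9 and rose 9.79-fold (adjusted p = 4.2e-07). The neuronal genes Elavl4, Uchl1 and Snap25 were not called. The glial factor Sox10 was called lower (-0.92, adjusted p = 0.041), and not with limma-voom (adjusted p = 0.081), with only both groups in the fit (0.056), after thinning (0.057), with a striated muscle covariate (0.066) or without any homozygote library from 1 to 3 or wild-type library 1 or 2, with adjusted p up to 0.13. Red blood cell genes spread widely in both groups, with summed levels of 667.3 to 28640 in the homozygotes and 9582 to 148500 in wild type. The globin gene Hba-a1 had 159.3, 310.1, 3778 and 8262 against 8908, 2871, 33020 and 45840 (-3.65, adjusted p = 0.061). Of 7 such genes 1 was called lower, and leaving out 1 library moved that count to 7 (homozygote library 4 or wild-type library 2), 4 (homozygote library 3) or 0 (each of the others). Adipose genes had a median of -1.71 with 1 of 8 called lower, or 5 without homozygote library 4, 3 without wild-type library 1 or 4, and 0 without any of the others. Single libraries held reads of genes typical of other organs, whose source was not tested. Sftpc, a lung surfactant gene, had 170.9 in homozygote library 4 and at most 1.53 in the other 7. Tg, thyroglobulin, had 171.9 in homozygote library 1 and at most 12.2 elsewhere.

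Outside these lists, the largest rises included genes with few reads in wild type. Rxfp3, a relaxin-family peptide receptor, had 227.2, 179.1, 107.0 and 195.3 against 0, 1.74, 1.87 and 3.36 (6.15, SE 0.37, adjusted p = 2.3e-08). Slc16a5, a monocarboxylate transporter family member, had 66.3, 58.0, 50.4 and 108.1 and no read in any wild-type library. Set against a floor of 3 reads over the wild-type group, that is at least 148-fold higher. Glyat, a glycine acyltransferase, had 192.5, 140.9, 103.9 and 101.1 against at most 5.60. Idi2, an isopentenyl diphosphate isomerase, had 58.4, 59.7, 22.9 and 371.4 against at most 0.677, and its log2 fold change of 6.05 was 5.28 without homozygote library 4. The pseudogenes Rpl3-ps1, Tdg-ps2 and Tdg-ps also stand among the 15 largest rises, and their reads may belong to their parent genes. The call of Rpl3-ps1 was lost with limma-voom (adjusted p = 0.22), and its log2 fold change of 11.92 was 12.54 without wild-type library 2.

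Several of the largest falls were in genes well expressed in the wild-type esophagus. Ada, adenosine deaminase, abundant in the wild-type esophagus, had 1484, 2043, 2407 and 4197 against 23780, 21390, 24690 and 11060 and fell 8.2-fold (-3.04, SE 0.30, adjusted p = 1.2e-05). Serpinb13, a squamous protease inhibitor, had 12.6, 13.3, 13.8 and 17.4 against 226.2, 259.1, 252.6 and 118.3. Padi1, which deiminates keratins, fell 10.5-fold and Ndufa4l2, a mitochondrial protein gene, 8.12-fold. Wild-type library 4 was the lowest wild-type library for Ada, Serpinb13 and Padi1. That it stood above every homozygote library follows from the rule, which took only falls whose groups do not overlap.

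Neighbouring genes in the osteocalcin cluster fell together. Bglap2 had no read in any homozygote library and 364.4, 351.3, 411.9 and 100.1 in wild type, at least 252-fold lower against a floor of 3 reads over the homozygote group. Bglap3 had 132.5, 129.3, 96.3 and 165.6 against 1895, 1707, 1821 and 1059 (-3.61, SE 0.26, adjusted p = 1.5e-07), and Paqr6, next to it, changed by -3.40 on the log2 scale, or -2.60 without homozygote library 1. Pmf1 and Slc25a44, the next tested genes beyond Bglap2, were not called (both 0.09). Beyond Paqr6, Smg5 was not called (-0.12) and Tmem79 was lower (-0.58, adjusted p = 0.0038). The Bglap genes are near-identical copies, so their reads cannot be split with certainty. The remaining names of the 15 largest falls are Lyg1, Sult1d1, Nox4, Ano2, Adig, Skint4, Scgb1a1 and Krt79, all with means under 200 in wild type. Scgb1a1 was the 1 gene called lower of 5 tested in the thyroid and airway list, and Adig is a gene of fat cells. The part of other tissues in these falls was not tested. Leaving out a homozygote library moved Lyg1 from -4.75 to -3.86 and Ano2 from -3.77 to -2.63 (both library 3). Adig moved from -3.70 to -3.07 (library 3) or -4.42 (library 4), and Skint4 from -3.60 to -4.41 (library 3). Nox4 ranged from -3.11 to -4.81 around -3.90, and its call was lost with limma-voom (adjusted p = 0.077) and with only both groups in the fit (adjusted p = 0.051).

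Homozygotes were also tested directly against the heterozygotes, which carry a single mutant allele and were sequenced to 12.8 to 16.9 M reads. That test called 3249 genes (16.4%), 1602 higher (8.07%) and 1647 lower (8.29%), and 2134 without homozygote library 1. Slc7a11 had 15180 to 19050 in heterozygotes and Gclc 10510 to 15560, so the homozygotes were higher by 0.89 and 0.84 on the log2 scale (adjusted p = 0.00024 and 0.002). Nqo1, at 3863 to 4760 in heterozygotes, differed by 0.56 (adjusted p = 0.0078). The stress keratins differed more: Krt6b had 6535 to 21010 in heterozygotes, and was 3.63 higher in homozygotes (adjusted p = 6.4e-05). Akr1c18, at 18.3 to 53.3, was 3.73 higher (adjusted p = 1.2e-05). Rxfp3 (0.84, adjusted p = 0.14) and Slc16a5 (0.63, adjusted p = 0.31) were not called between the genotypes. Krt4 was not called either (-1.07, adjusted p = 0.084). Of 22 cell cycle genes 19 were higher than in heterozygotes, whose summed level, 6699 to 8361, lay below that of wild-type libraries 1 to 3. In the striated muscle list 11 of 20 were lower. With a striated muscle covariate the count of all genes called fell to 312.

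KEAP1-deficient libraries allow a comparison of the mutated NRF2 with the loss of its inhibitor. Calls numbered 5248 (26.4%), of which 2568 were up (12.9%) and 2680 down (13.5%) in L30F homozygotes. Of the 86 members of the 7 antioxidant lists 37 were called (43.0%), with 16 up and 21 down in L30F homozygotes. The quinone, carbonyl and aldehyde list alone had 10 higher and 6 lower of 23. Akr1c18 was among the lower ones (-1.90, adjusted p = 0.00063). Nqo1, Gclc, Gclm and Gsta1 were not called, with log2 differences of 0.06, -0.07, 0.07 and -0.08 and SEs between 0.10 and 0.16. Slc7a11 was lower in L30F homozygotes (-0.54, adjusted p = 0.0033). Some squamous genes differed by more than 4 on the log2 scale. Krt4 had 2821 to 17640 in KEAP1-deficient libraries, so homozygotes were higher by 4.37 (adjusted p = 3.4e-06), and Krt15 was higher by 4.23 (adjusted p = 1.1e-07). Krt14, Krt16 and S100a8 were lower in homozygotes, by log2 differences of -1.67, -2.14 and -4.06, while Krt6b was not called (-0.64, adjusted p = 0.25). Of 20 striated muscle genes 18 were higher in L30F homozygotes than in KEAP1-deficient libraries. With striated muscle as a covariate 1 gene was called, so the muscle share and the genotype cannot be told apart in this comparison.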

How the data were processed

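Total RNA from the esophagus was made into strand-specific libraries with the MGIEasy RNA Directional kit, per the labels' protocols, and the submitters' processing notes name Salmon and GRCm39, with no versions. The authors deposited log2 values per gene. They equal log2(n + 4), where n is the reads divided by a library scaling factor: whole reads could be recovered for 100% of values up to 1000 reads within 0.1 of a whole number. Each value was taken back to n, the normalised count. Of 19942 genes listed, 19857 with n of at least 1 in at least 4 of the 16 adult libraries were tested with limma 3.58.1 (trend and robust, statmod 1.5.0, R 4.3.3) on log2(n + 1), with all 16 libraries in 1 fit. Benjamini-Hochberg adjustment ran over all genes tested, and genes under 0.05 were called. Medians and counts of lists are descriptions, with no test of the list. Libraries held 10.9 to 32.3 M reads, so 1 read was worth 0.580 to 0.677 in wild type and 1.53 to 1.74 in the homozygotes.

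The comparison, gene lists and rule for named genes were chosen with earlier results of these data known. The rule took Nfe2l2, Keap1 and Nqo1, the 15 largest called rises and 15 largest called falls whose groups do not overlap and whose higher mean is at least 20, and up to 5 members per list. Duplicated symbols, predicted genes and sex genes stayed out of the largest changes. Genes outside it were chosen after their values were seen: Egf, the neighbours of Nfe2l2 and Bglap2, members named as not called, and Sftpc and Tg. Alternatives were other offsets, filters and scaling, limma-voom on recovered reads, thinning to equal depth, fewer libraries in the fit, covariates and a replicate block. Of the 241 genes the rule reaches, some are not reported here.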

Additional observations from a re-analysis of the deposited data

Results flagged for a closer look

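Single libraries that stood far from the other 3 of their group were looked for among the 150 genes whose fold changes are printed, by the gap to the nearest library over the group's range (Dixon's 95% critical value). Of 300 groups 22 were past it, and chance flags about 1 in 20 groups. No explanation was tested.

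Wild-type library 4 stood apart in the stress and squamous genes Krt6a (4445 normalised reads, the other 3 at 1258 to 1513), Krt16 (215.7, others 79.3 to 101.4), Krt17 (515.5, others 49.5 to 93.9) and Sprr2d (226.5, others 22.4 to 27.8). It also stood apart in Mcm2 (410.0, others 285.9 to 300.3), Ahr (725.2, others 911.8 to 938.1), Sc5d (1256, others 1821 to 1937) and Defb3 (0.6722, others 0). Wild-type library 2 stood apart in Prdx1 (3145, others 3273 to 3287), Krt10 (541.4, others 221.1 to 258.2), Gdf15 (8.695, others 6.05 to 6.22), Rpl3-ps1 (4.637, others 0) and Ccl20 (0.5795, others 0). Wild-type library 3 was high in Sult1d1 (116.4, others 50.4 to 61.6) and low in Hoxd8 (255.7, others 293.3 to 300.3). Wild-type library 1 was the only one of its group with a read of Idi2 (0.6774, the value of 1 read). In Defb3, Ccl20, Rpl3-ps1 and Idi2 the other 3 libraries were at 0, so any read passes the rule. The chance rate given above does not hold for these genes.

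Homozygote library 4 was low in Krt17 (338.2, others 1139 to 1229) and high in Tyms (667.8, others 605.8 to 614.4) and Idi2 (371.4, others 22.9 to 59.7). Homozygote library 3 was high in Pecam1 (1848, others 1517 to 1535). Homozygote library 1 was high in Nrg1 (362.8, others 262.9 to 277.2). Homozygote library 2 was low in Mtx2 (361.5, others 418.8 to 424.4).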

How the results depend on the processing

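The count of 4420 genes between homozygotes and wild type ranged from 3882 to 4505 under the other offsets, filters, scaling, test, depth, covariates and choice of libraries, from 3061 to 4492 with 1 library left out, and was 1167 with a 2-fold minimum. Against heterozygotes the count of 3249 was 1200 with Ddx3y as a covariate, 1543 with only the groups compared, 312 with a striated muscle covariate, 907 with a 2-fold minimum, and 2134 to 3314 with 1 library left out. The muscle covariate moved the share called higher there from 49.3% to 60.9%. Against KEAP1-deficient libraries the count of 5248 was 1 with that covariate, 1713 with a 2-fold minimum, and 4087 to 5219 with 1 library left out. The causes were not tested. With the replicate number as a block the counts were 4317, 3104 and 5096. Of the printed genes Bach1, Nfe2l3, Egf, Ckm and Hoxd8 lost their call under that block, and Hba-a1 gained 1 (-3.65, adjusted p = 0.023 with limma). After group means were removed, same-numbered homozygote and wild-type libraries correlated at 0.067, -0.049, 0.028 and -0.056. Values near 0 over all genes cannot exclude a factor shared by same-numbered libraries, so whether the numbers pair the samples stays unknown.

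Of 150 genes with a printed fold change, 129 kept their direction and their side of the threshold under every alternative run, and 17 lost a call in at least 1. Directions turned for Mt2 (-0.10 without wild-type library 4, and up to 0.39 with another library left out) and Ttn, neither of them called: Ttn was at 0.00 with the Ddx3y covariate and between 0.01 and 0.07 without homozygote library 1 or 3 or wild-type library 2, 3 or 4. Depth limits genes with few reads: 3 reads over a group correspond to a mean of 0.478 in wild type and 1.22 in the homozygotes.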
